A study of Mus musculus with 9 samples.

Results

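Mitosis and chromosome segregation genes were described here as a named set of 45 genes. They were taken from the count table by symbol, and each symbol met a single one of the 53679 gene IDs in the table. All 45 passed the low-count filter. CD8+ T cells from C57BL/6 mice were activated for 3 days, and their total RNA was sequenced after ribosomal RNA had been depleted. The 3 groups were Tc0 cells with no agent, Tc0 cells to which coenzyme A (CoA, which carries acyl groups and is made from pantothenate) was given, and Tc22 cells with no agent. Tc0 usually means CD8+ T cells that received no polarising cytokine, and Tc22 means cells that make interleukin-22. The labels used here give neither the CoA dose nor the culture conditions of Tc0 and Tc22, nor the age of the mice. Mice 715, 725 and 728 each gave 1 library to every group, so each group held 3 libraries, and values listed in threes below follow that order of mice. These were cells activated outside the animal, so the values describe cultures and not T cells in a tissue.

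Activated CD8+ T cells divide fast, and a dividing cell builds up the mRNAs of its mitotic machinery in G2 and lowers them again after division. Cyclin-dependent kinase 1 with cyclins A and B drives entry into mitosis, condensin packs the chromosomes, and microtubule motors build the spindle. Kinetochores tie chromosomes to the spindle, the spindle checkpoint holds anaphase back until all are attached, and Cdc20 with the anaphase promoting complex then releases it. A central spindle and a contractile ring split the cell. Promoters of many of these genes carry a cell cycle genes homology region (CHR, core TTTGAA), which the DREAM and MuvB complexes bind, and CCAAT boxes, which NF-Y binds.

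Promoter windows are shown for 5 members on which the comparisons below turn: Ndc80 and Mki67, whose fits gave the 2 lowest log2 fold changes with CoA, Aurka, the member that rose with CoA, and Ccnb1 and Ccnb2, which moved apart between Tc22 and Tc0 with CoA. Each runs 5′ to 3′ on the gene's strand from 250 bases before to 50 after the start of transcription (RefSeq, GRCm38.p6). Capitals mark TTTGAA and CCAAT on either strand, which read TTCAAA and ATTGG on the opposite one.
Ndc80 (chr17:71526808-71527107, minus strand): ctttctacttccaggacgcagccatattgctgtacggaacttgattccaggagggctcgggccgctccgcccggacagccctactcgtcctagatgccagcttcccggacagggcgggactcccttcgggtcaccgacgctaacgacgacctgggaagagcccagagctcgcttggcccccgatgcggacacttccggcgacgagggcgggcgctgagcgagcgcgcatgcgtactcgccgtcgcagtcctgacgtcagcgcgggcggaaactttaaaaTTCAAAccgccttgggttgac
Mki67 (chr7:135716330-135716629, minus strand): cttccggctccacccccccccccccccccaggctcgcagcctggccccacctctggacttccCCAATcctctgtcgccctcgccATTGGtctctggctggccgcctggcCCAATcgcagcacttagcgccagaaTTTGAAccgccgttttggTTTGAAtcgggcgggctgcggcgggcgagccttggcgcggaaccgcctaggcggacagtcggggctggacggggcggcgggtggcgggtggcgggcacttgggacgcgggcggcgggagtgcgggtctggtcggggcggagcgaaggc
Aurka (chr2:172370521-172370820, minus strand): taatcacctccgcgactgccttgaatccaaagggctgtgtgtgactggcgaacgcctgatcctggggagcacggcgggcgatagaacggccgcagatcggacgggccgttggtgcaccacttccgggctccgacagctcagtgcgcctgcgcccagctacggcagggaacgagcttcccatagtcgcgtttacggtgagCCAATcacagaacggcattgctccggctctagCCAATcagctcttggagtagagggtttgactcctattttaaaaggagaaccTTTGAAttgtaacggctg
Ccnb1 (chr13:100786437-100786736, minus strand): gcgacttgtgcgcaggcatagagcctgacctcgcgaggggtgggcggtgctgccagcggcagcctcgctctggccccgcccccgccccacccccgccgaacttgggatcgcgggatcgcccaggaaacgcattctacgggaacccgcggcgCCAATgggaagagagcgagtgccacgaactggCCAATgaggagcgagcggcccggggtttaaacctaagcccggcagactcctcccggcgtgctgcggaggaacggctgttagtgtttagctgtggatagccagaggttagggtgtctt
Ccnb2 (chr9:70421505-70421804, minus strand): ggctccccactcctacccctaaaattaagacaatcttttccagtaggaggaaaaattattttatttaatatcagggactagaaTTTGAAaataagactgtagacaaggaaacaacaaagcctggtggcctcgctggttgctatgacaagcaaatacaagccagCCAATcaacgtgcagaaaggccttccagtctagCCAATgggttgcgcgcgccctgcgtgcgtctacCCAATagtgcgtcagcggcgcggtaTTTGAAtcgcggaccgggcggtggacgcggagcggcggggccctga
Ndc80 holds a CHR core and no CCAAT, Ccnb1 holds CCAAT boxes and no CHR core, and the other windows shown hold both. Of the 45 members, 38 had a window in the table. The CHR core stood in 30 of them (78.9%), against 20.2% of the windows of all 27025 genes in the table, and CCAAT in 28 (73.7%) against 41.1%. Both motifs stood in 1 window for 25 members (65.8%), against 7.97% of all genes. An E2F-type site, TTCCCGC, was found for 1 member (2.63%) against 5.29%. Each motif was searched on both strands, and the letters of none contain those of another. A match describes letters in these windows and is not a measured binding site.

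The libraries held 21841034 to 36254631 counts, and the 45 members together took 1.08% to 1.56% of them. Levels below are given as CPM, counts scaled to a common library size, with library sizes adjusted by the trimmed mean of M-values (TMM). The Tc0 library of mouse 728 stood apart from the other Tc0 libraries. Histone genes took 0.668% of its counts, against 0.140% (mouse 715) and 0.188% (mouse 725) in that group. They took 0.162%, 0.178% and 0.366% with CoA and 0.252%, 0.408% and 0.493% in Tc22, so mouse 728 was highest in each group. Results that rest on the Tc0 library of mouse 728 are given with and without it. The label of the cells was checked with 8 T cell markers, all of which were present, with Cd8a at 647 to 860.2 CPM, while Cd4 stayed at or under 1.37 CPM. Markers of B cells summed to 14.2 ± 2.02 CPM in Tc0, 33.3 ± 2.21 CPM with CoA and 23.0 ± 4.78 CPM in Tc22 (SD, n = 3). Cd79b was the larger part of that sum in Tc0 and Cd74 in the other groups, while Pax5 did not pass 0.266 CPM in any library. Macrophage markers summed to 5.43 ± 1.04, 9.81 ± 4.56 and 6.55 ± 0.51 CPM (SD, n = 3). Lyz2 reached at most 7.63, Cd68 5.44, Adgre1 1.59, Cd14 1.16, Csf1r 0.796 and Fcgr1 0.0888 CPM in any library. Markers of CD4 T cells summed to 11.8 ± 3.03, 14.1 ± 1.82 and 15.2 ± 1.77 CPM (SD, n = 3), mostly Zbtb7b. Markers of natural killer, dendritic and erythroid cells and granulocytes summed to at most 2.19 CPM in any library, and Elane, S100a9 and Siglech were at 0 throughout.

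Every member was expressed in every library, at 19.0 to 2936 CPM. Per kilobase of the longest coding transcript, the mean over the 9 libraries was highest for Top2a (453 CPM per kb), the topoisomerase that untangles sister chromatids. Smc4 followed at 249, Ccna2 at 188 and Mki67 at 163 CPM per kb, and Espl1, the separase gene, stood lowest at 12.4. The median of the members was 49.9 CPM per kb. On the plain CPM scale, Top2a, Mki67 and Smc4 made up 34.1% to 41.2% of the members' sum in a library. That sum was 15072, 15930.5 and 12728 CPM in the Tc0 libraries, 12226, 10866 and 11090.3 CPM with CoA, and 13064, 14241 and 13501 CPM in Tc22. Each library with CoA lay below every library of the other groups.

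**Figure D1:**
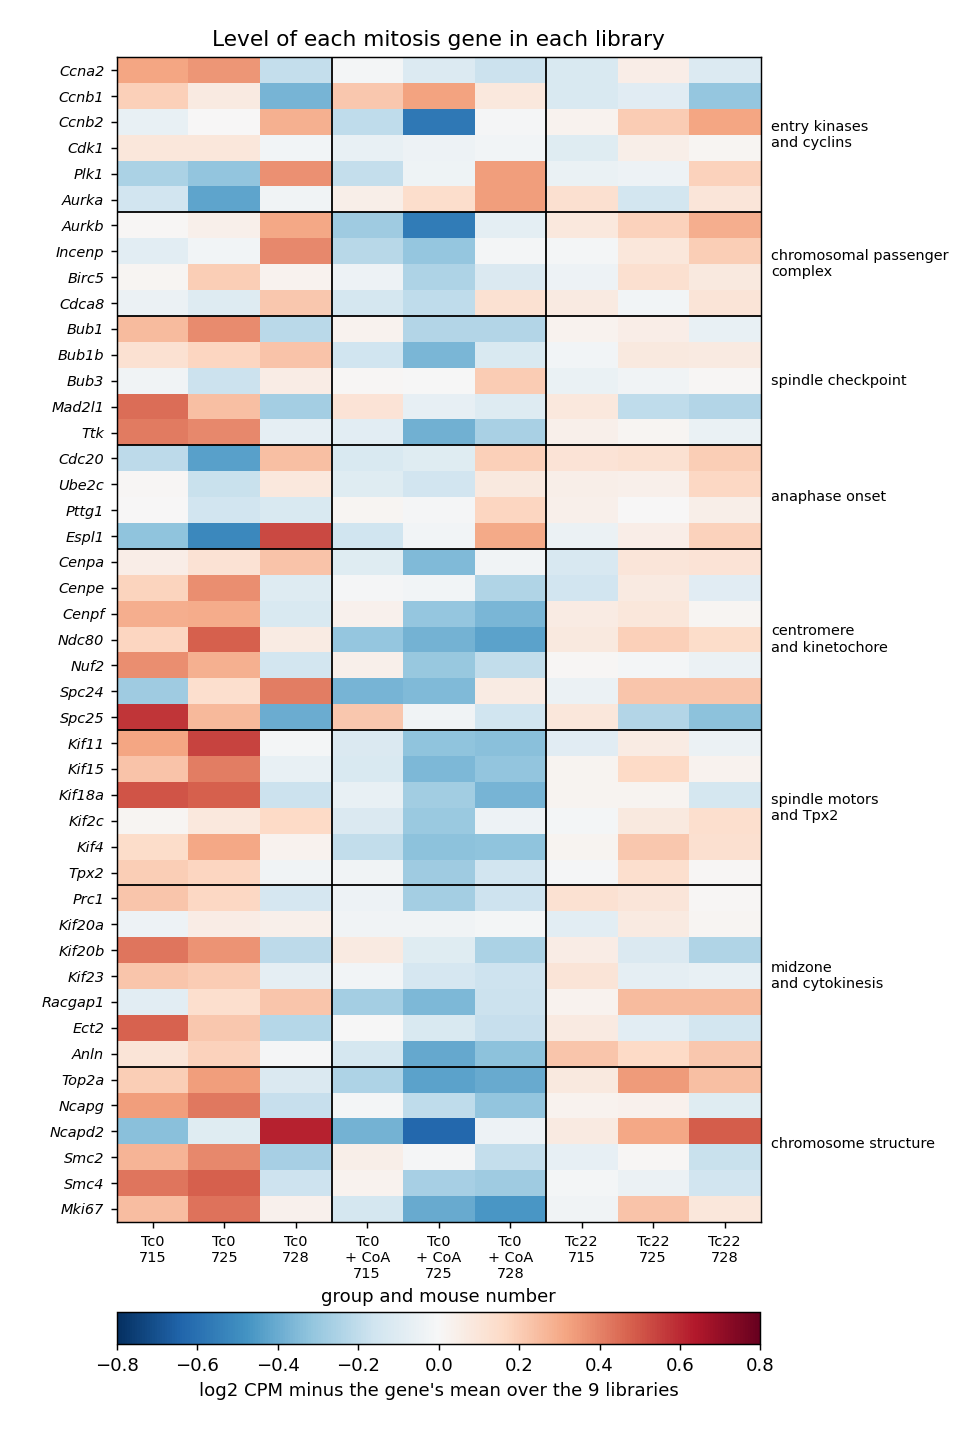
Level of each of the 45 members (rows, grouped by role) in each of the 9 libraries (columns), as log2 CPM minus the gene's mean over the libraries; red is above that mean and blue below. The columns with CoA are blue for most rows, exceptions include Aurka, Ccnb1, Bub3 and Pttg1, and the Tc0 column of mouse 728 differs from its neighbours.

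Tc0 with CoA was first compared with Tc0, the comparison of CoA with no agent in the same kind of cell. Most mitosis genes had lower levels with CoA, and 15 passed the test as falls: Cenpf, Racgap1, Anln, Ncapg, Smc4, the kinetochore gene Ndc80, the proliferation marker Mki67, the motors Kif11, Kif18a, Kif15 and Kif4, the kinases Aurkb, Bub1b and Ttk, and Top2a. These falls had log2 fold changes of -0.61 to -0.36. Aurka, which encodes the centrosomal aurora kinase, was the 1 member that rose, with a log2 fold change of 0.38. The 15 falls were 33.3% of the members, while 12% of the 15348 genes tested were called lower, and the 1 rise was 2.22%, while 12.5% of all genes were called higher (edgeR's quasi-likelihood test with mouse as a block, Benjamini-Hochberg adjusted p under 0.05). The median log2 fold change was -0.28 over the members and -0.01 over all genes tested, and 38 of the 45 values were below 0. In 31 members the level was lower in 3 of 3 mice, which is 68.9% against 26.8% of all genes. It was higher in 3 of 3 mice for 4 (Ccnb1, Aurka, Bub3 and Pttg1), 8.89% against 27.2%. In 15 members the 3 libraries with CoA lay below the 3 Tc0 libraries, 33.3% against 13.6%, and in 1, Aurka, above them, 2.22% against 14.2%. Counting RNA from a whole culture, fewer cells in G2 and mitosis and less of these mRNAs per cell cannot be told apart. Beside these falls, 4 of the 8 T cell markers were lower with CoA (Cd2, Cd3d, Cd3e and Cd3g). Cd5 (log2 fold change of -0.29), Cd8a (-0.06), Cd8b1 (0.0047) and Lck (0.04) did not pass. The 8 markers summed to 2455 ± 312 CPM in Tc0, 2045 ± 257 CPM with CoA and 2406 ± 268 CPM in Tc22 (SD, n = 3). Of the 4 macrophage markers tested, 2 (Lyz2, log2 fold change of 1.15 with an SE of 0.25 and an adjusted p = 0.0117, and Cd14, log2 fold change of 2.24 with an SE of 0.51 and an adjusted p = 0.0134) were higher. Csf1r did not pass (log2 fold change of 1.5 with an SE of 0.53 and an adjusted p = 0.0637). Of the other markers tested, 1 of 2 of B cells (Cd74, log2 fold change of 2.58 with an SE of 0.22 and an adjusted p = 0.000456) and 1 of 4 of CD4 T cells (Cd40lg, log2 fold change of 1.13 with an SE of 0.29 and an adjusted p = 0.0204) were higher, and none of 3 of dendritic cells or 2 of natural killer cells passed. The part of these markers in the result was not tested.

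The number of calls depended on single libraries, while the direction of the median did not. Ndc80 alone was called lower and no member higher without the Tc0 library of mouse 725, or without the CoA library of mouse 725 or of mouse 728. That 1 member is 2.22% of the 45, beside 3.17%, 3.59% and 4.22% of all genes called lower in these fits, so the members' share was then below that of all genes. Without the Tc0 library of mouse 715, 9 were lower (20%, beside 10% of all genes) and none higher. Without that of mouse 728, 26 were lower (57.8%, beside 11.9%), the 15 included, and 1 was higher (2.22%, beside 13.4%). Without mouse as a block 3 were lower (Ndc80, Kif4 and Mki67, 6.67% beside 4.31%) and none higher, and with the Tc22 libraries left out of the fit 9 were lower (20%, beside 9.73%) and none higher. The median over the members stayed between -0.32 and -0.20 when single libraries were left out.

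**Figure D2:**
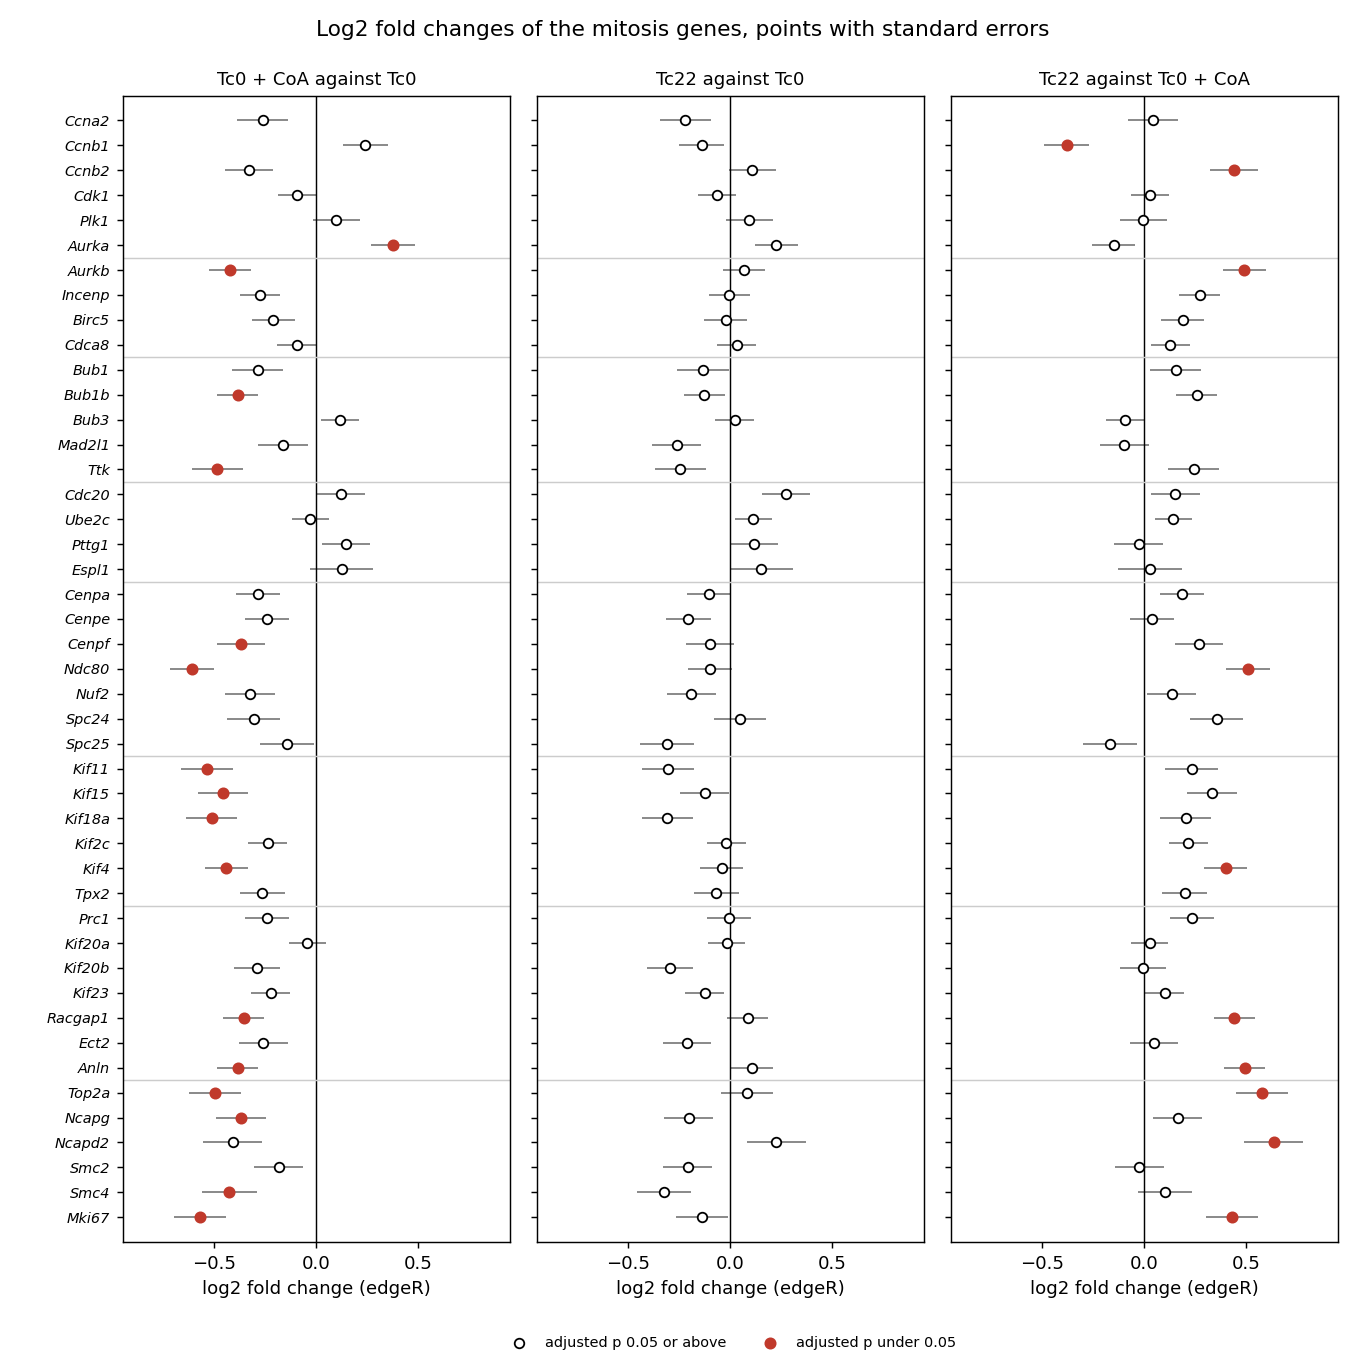
Log2 fold changes of the 45 members (rows, in the order of their roles) in the 3 comparisons, with standard errors; filled points have an adjusted p under 0.05. In the left panel 38 of 45 points lie below 0 and 16 are filled, in the middle panel none is filled, and in the right panel 10 are filled, of which 9 lie above 0.

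Tc22 was then set against Tc0 with CoA, comparing the untreated interleukin-22 population with the treated Tc0 cells. Of the members 9 were higher in Tc22: Ccnb2, Aurkb, Ndc80, Kif4, Racgap1, Anln, Top2a, Ncapd2 and Mki67, with log2 fold changes from 0.40 (Kif4) to 0.64 (Ncapd2). Ccnb1, which encodes a cyclin that activates Cdk1, was the 1 member that was lower, with a log2 fold change of -0.38. The 9 were 20% of the members against 16% of all genes tested called higher, and the 1 was 2.22% against 16% called lower. The share called higher was therefore near that of all genes. The median over the members was 0.17, beside 0.01 over all genes, and the 3 Tc22 libraries lay above the 3 with CoA for 17 members (37.8% against 20.2%) and below them for Ccnb1 alone (2.22% against 21.7%). In 27 members the level was higher in Tc22 in 3 of 3 mice (60% against 32.9%) and in 4 it was lower (8.89% against 32.5%). Beside this, 4 of the 8 T cell markers were higher in Tc22 (Cd2, Cd3d, Cd3e and Cd3g), while Cd5, Cd8a, Cd8b1 and Lck did not pass. Of the 4 macrophage markers tested, 1 was higher (Cd68) and 3 were lower (Lyz2, Cd14 and Csf1r), and Cd74 was lower. The CD4 T cell marker Cd40lg was lower (log2 fold change of -1.67 with an SE of 0.30 and an adjusted p = 0.00344), the natural killer cell marker Klrb1c was higher (log2 fold change of 1.57 with an SE of 0.53 and an adjusted p = 0.0452), and no dendritic cell marker passed. The part of these markers in the result was not tested. This comparison shares the CoA libraries with the first, so the values of both are given below gene by gene.

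Ndc80 and Anln stayed called higher in Tc22 under each of the 16 alternatives tried. Without the CoA library of mouse 725, 2 members (4.44%) were called higher, beside 7.85% of all genes, and without the Tc22 library of that mouse 2 were, beside 7.32%. Without the CoA library of mouse 728, 4 were higher (8.89%, beside 8.03%), and in none of these 3 fits was a member lower. Leaving out the Tc0 library of mouse 728 gave 14 higher (31.1%, beside 18.7%) and 1 lower. Ccnb1 also lost its call without the Tc22 library of mouse 715. With no block for mouse, 5 were higher (11.1%, beside 6.63%) and none lower.

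Between Tc22 and Tc0, both with no agent, no member passed the threshold in either direction, beside 2.48% of all genes called higher and 1.21% called lower by edgeR. At an unadjusted p under 0.05 by edgeR there were 6 of the 45 members, beside 3248 of the 15348 genes tested, so the members' share was the smaller. DESeq2 also called 0 members. The log2 fold changes ran from -0.32 for Smc4, a condensin subunit, to 0.27 for Cdc20, the activator of the anaphase promoting complex, with a median of -0.07 and standard errors of 0.09 to 0.16. Leaving out the Tc0 library of mouse 728 changed the counts: Cdc20 was then called higher and 11 members lower (Ccna2, Mad2l1, Ttk, Spc25, Kif11, Kif18a, Kif20b, Ect2, Ncapg, Smc2 and Smc4), beside 9.91% and 7.1% of all genes. Leaving out any other library gave 0 calls. The libraries of the groups overlapped for 43 of the 45 members. The exceptions were Pttg1, higher in Tc22 by a very narrow margin (1 member, beside 6.55% of all genes), and Bub1b, lower (1, beside 5.98%). Tc22 was higher in 3 of 3 mice for 5 members and lower in 3 of 3 for 5, each 11.1% of the members, beside 19.1% and 21.3% of all genes. Of the cell type markers tested, Cd74 (log2 fold change of 1.74 with an SE of 0.22 and an adjusted p = 0.00309) was higher in Tc22. So was Cd4, at 0.14 to 1.37 CPM over all libraries (log2 fold change of 1.59 with an SE of 0.37 and an adjusted p = 0.0484). No other marker passed, and the part of these markers in the result was not tested.

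Of the 6 kinases and cyclins of mitotic entry, 1 rose with CoA and none fell. Aurka (ENSMUSG00000027496, chr2:172356190-172370535, GRCm38, GENCODE M21), the kinase of centrosomes and spindle poles, had 88.8, 73.5 and 96.8 CPM in the Tc0 libraries, 102, 109 and 124 CPM with CoA and 108, 88.9 and 106 CPM in the Tc22 libraries. All 3 values with CoA lay above all 3 Tc0 values, and Tc22 lay between and overlapped both. Its CoA fit gave a log2 fold change of 0.38 with an SE of 0.11 and an adjusted p = 0.0292, and it was higher in 3 of 3 mice and past the threshold in 9 of the 16 alternatives. Ccnb1 (ENSMUSG00000041431, chr13:100778650-100786570) and Ccnb2 encode B-type cyclins, which activate Cdk1. Ccnb1 had 367, 339 and 249 CPM in Tc0, 373, 403 and 342 CPM in Tc0 with CoA and 297, 303 and 259.8 CPM in Tc22. It was higher with CoA in 3 of 3 mice, though the groups overlapped (log2 fold change of 0.24 with an SE of 0.11 and an adjusted p = 0.138), and its Tc22 values all lay below those with CoA (log2 fold change of -0.38 with an SE of 0.11 and an adjusted p = 0.0262). Ccnb2 showed the opposite order, with 139, 145 and 176 CPM in the Tc0 libraries, 125, 97.3 and 143 CPM with CoA and 147, 167 and 179.9 CPM in the Tc22 libraries. Its CoA difference was -0.33 (SE 0.12, adjusted p = 0.0663), and Tc22 lay above CoA in all 3 libraries (log2 fold change of 0.44 with an SE of 0.12 and an adjusted p = 0.0189). Ccna2, the cyclin of S phase and G2, had 689, 706 and 486 CPM in Tc0, 547, 513 and 491 CPM in Tc0 with CoA and 508, 575 and 514 CPM in Tc22. The Tc0 library of mouse 728 was the lowest of the 9, and the groups overlapped, with a CoA difference of -0.26 (SE 0.12, adjusted p = 0.148). For Cdk1, the kinase itself, levels were 228.6, 228.5 and 212.0 CPM in Tc0, 206.0, 209.2 and 211.9 CPM in Tc0 with CoA and 200.8, 221.6 and 217.2 CPM in Tc22. The values with CoA were all below those of Tc0, though the highest and the lowest of them nearly met (log2 fold change of -0.09 with an SE of 0.09 and an adjusted p = 0.507). Plk1, a polo-like kinase of spindle and centrosome, had 46.4, 44.3 and 71.2 CPM in the Tc0 libraries, 48.4, 54.0 and 69.5 CPM with CoA and 53.1, 53.8 and 62.6 CPM in the Tc22 libraries, with groups that overlapped in each comparison and a CoA difference of 0.10 (SE 0.12, adjusted p = 0.574).

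**Figure D3:**
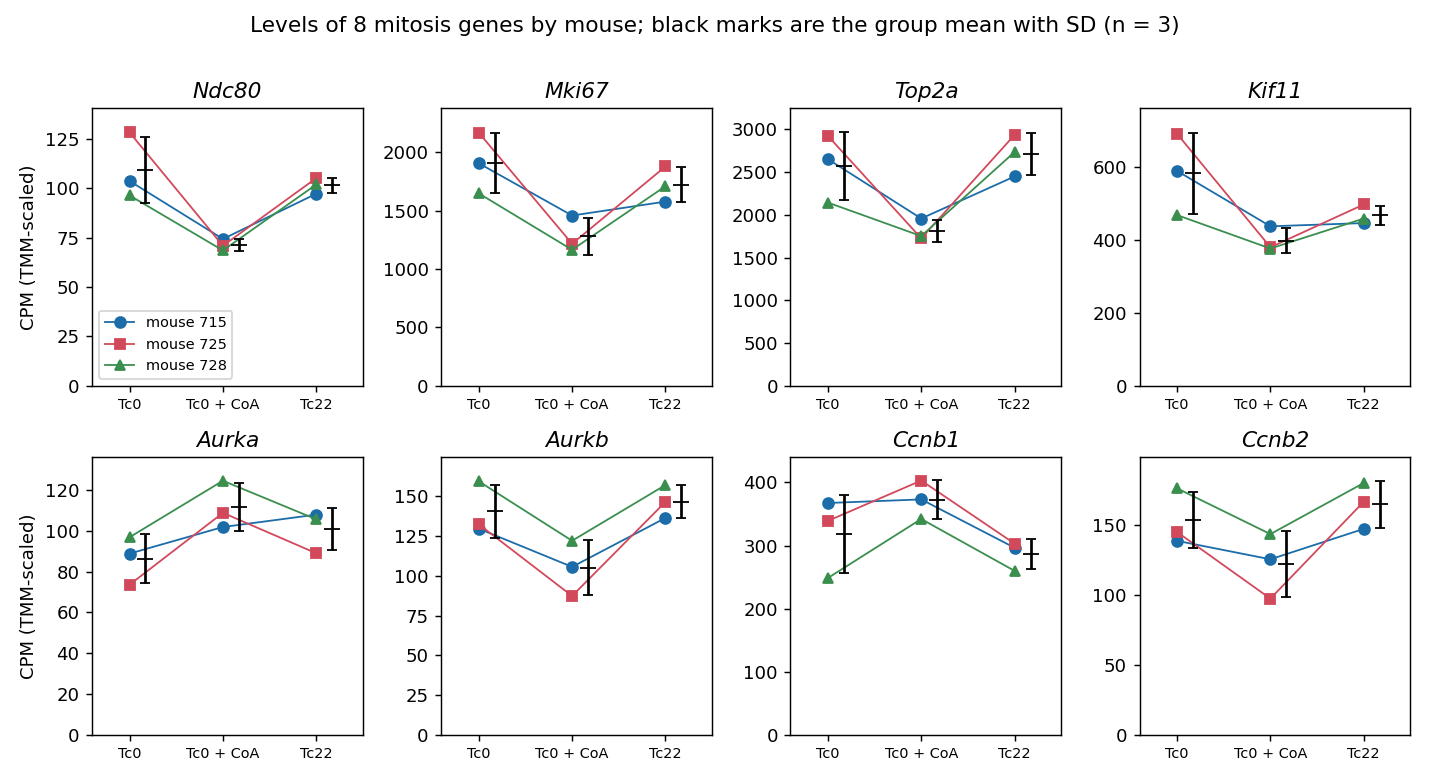
Levels in CPM (TMM-scaled, linear axes from 0) of 8 members in each group, with 1 line per mouse and black marks for the group mean with SD (n = 3). Ndc80, Mki67, Top2a, Kif11 and Aurkb are lowest with CoA in each mouse, Aurka is above Tc0 in each mouse, and Ccnb1 and Ccnb2 run in opposite directions between Tc0 with CoA and Tc22.

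The chromosomal passenger complex corrects faulty attachments and steers cytokinesis, and 1 of its 4 members fell with CoA. Aurkb, its kinase, had 129.7, 132 and 159 CPM in the Tc0 libraries, 106, 87.3 and 122 CPM with CoA and 136, 147 and 157 CPM in the Tc22 libraries. The libraries with CoA lay below both other groups, with a log2 fold change of -0.42 with an SE of 0.11 and an adjusted p = 0.0181 against Tc0, and Tc22 was higher than CoA (log2 fold change of 0.49 with an SE of 0.11 and an adjusted p = 0.00723). Aurka and Aurkb, paralogous kinases, thus had CoA differences of opposite sign. Birc5, which encodes survivin, had 133.2, 151.0 and 134.6 CPM in Tc0, 128.2, 111.5 and 121.6 CPM in Tc0 with CoA and 128.3, 144.5 and 139.4 CPM in Tc22. Its values with CoA were below those of both other groups, but the test did not pass (log2 fold change of -0.21 with an SE of 0.11 and an adjusted p = 0.171). The scaffold Incenp and the subunit gene Cdca8 had CoA differences of -0.28 (SE 0.10, adjusted p = 0.0711) and -0.10 (SE 0.10, adjusted p = 0.501), and Tc22 against Tc0 gave values between -0.02 and 0.07 over the 4 members.

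The spindle checkpoint had 5 members, of which 2 fell with CoA. Bub1b, whose product BubR1 inhibits Cdc20, had 266, 275 and 287 CPM in the Tc0 libraries, 219, 190.0 and 225 CPM with CoA and 242, 258 and 257 CPM in the Tc22 libraries. CoA was below both other groups in every library (log2 fold change of -0.39 with an SE of 0.10 and an adjusted p = 0.0219 against Tc0), and the Tc22 libraries were also all below the Tc0 libraries, without passing the test (log2 fold change of -0.13 with an SE of 0.10 and an adjusted p = 0.473). Ttk encodes Mps1, the kinase that starts checkpoint signalling, and had 77.0, 75.5 and 54.9 CPM in Tc0, 54.5, 44.3 and 48.2 CPM in Tc0 with CoA and 59.5, 58.3 and 55.8 CPM in Tc22. Its CoA values were the lowest of the 3 groups (log2 fold change of -0.49 with an SE of 0.13 and an adjusted p = 0.0205). Mad2l1, the Mad2 gene, had 244, 212 and 148 CPM in the Tc0 libraries, 193, 171 and 166 CPM with CoA and 189, 155 and 152 CPM in the Tc22 libraries. Its Tc0 values spanned those of the other groups, with mouse 728 lowest, and the CoA difference was -0.16 (SE 0.12, adjusted p = 0.352). Bub1 and Bub3, which dock the checkpoint at kinetochores, had CoA differences of -0.29 (SE 0.13, adjusted p = 0.125) and 0.12 (SE 0.09, adjusted p = 0.394), the latter higher in 3 of 3 mice.

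None of the 4 genes of anaphase onset passed the threshold in any comparison, and their median CoA difference was 0.12. Cdc20 had 99.2, 85.0 and 136 CPM in the Tc0 libraries, 105, 108 and 131 CPM with CoA and 124, 125 and 131 CPM in the Tc22 libraries. The Tc0 libraries of mice 715 and 725 were the lowest of the 9 and that of mouse 728 the highest, with a CoA difference of 0.12 (SE 0.12, adjusted p = 0.494) and a Tc22 difference of 0.27 (SE 0.12, adjusted p = 0.226). Ube2c, the ubiquitin-conjugating enzyme of the anaphase promoting complex, had 105, 92.5 and 111 CPM in Tc0, 97.6, 93.7 and 110.4 CPM in Tc0 with CoA and 108, 108 and 117 CPM in Tc22. These groups overlapped and the CoA difference was -0.03 (SE 0.09, adjusted p = 0.836). Pttg1 encodes securin, the inhibitor of separase, and had 21.2, 19.0 and 19.4 CPM in the Tc0 libraries, 21.4, 20.9 and 23.7 CPM with CoA and 21.8, 21.2 and 21.8 CPM in the Tc22 libraries. It was higher with CoA in 3 of 3 mice, with overlap (log2 fold change of 0.15 with an SE of 0.12 and an adjusted p = 0.399). Its Tc22 values all lay above Tc0 (log2 fold change of 0.12 with an SE of 0.12 and an adjusted p = 0.584). The lowest Tc22 value (21.187 CPM) and the highest Tc0 value (21.184 CPM) nearly met. Espl1, separase itself, had 64.9, 56.7 and 117 CPM in Tc0, 72.5, 79.7 and 100.1 CPM in Tc0 with CoA and 78.4, 83.9 and 92.1 CPM in Tc22. The Tc0 value of mouse 728 was the highest of the 9 and that of mouse 725 the lowest, and the CoA difference was 0.12 (SE 0.16, adjusted p = 0.598).

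All 7 centromere and kinetochore genes had CoA differences below 0, and 2 of them fell. Ndc80 (ENSMUSG00000024056, chr17:71496100-71526857), whose product grips the spindle microtubules, had 104, 128 and 96.3 CPM in the Tc0 libraries, 74.3, 70.8 and 68.5 CPM with CoA and 97.2, 105 and 102 CPM in the Tc22 libraries. The libraries with CoA were below both other groups and close to each other, while Tc0 and Tc22 overlapped. Its log2 fold change of -0.61 against Tc0 was the lowest of the 45 (SE 0.11, adjusted p = 0.00582), and that of Tc22 against CoA was 0.51 (SE 0.11, adjusted p = 0.00706). Its call with CoA held under all 16 alternatives. Cenpf, a large kinetochore protein, also fell, with a CoA difference of -0.37 (SE 0.12, adjusted p = 0.0474). The partners of Ndc80 in its complex did not pass: the CoA differences were -0.33 (SE 0.12, adjusted p = 0.0777) for Nuf2, -0.31 (SE 0.13, adjusted p = 0.11) for Spc24 and -0.14 (SE 0.13, adjusted p = 0.457) for Spc25. Cenpa, the histone H3 variant that marks centromeres, had 124, 129.8 and 141 CPM in Tc0, 112, 93.7 and 117 CPM in Tc0 with CoA and 109.8, 128 and 129.5 CPM in Tc22. All 3 values with CoA were below Tc0 (log2 fold change of -0.29 with an SE of 0.11 and an adjusted p = 0.0786). Cenpe, a kinetochore motor, had 362, 414 and 298 CPM in the Tc0 libraries, 317, 314 and 271 CPM with CoA and 288, 337 and 300.0 CPM in the Tc22 libraries. These groups overlapped, with a CoA difference of -0.24 (SE 0.11, adjusted p = 0.132).

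Spindle motors held 4 of the 15 falls among 6 genes. Kif11 encodes Eg5, which pushes the spindle poles apart, and had 591, 693 and 469 CPM in the Tc0 libraries, 438, 381 and 377 CPM with CoA and 447, 498 and 459.7 CPM in the Tc22 libraries. Every value with CoA was below every other one, and the Tc0 values were spread widely (log2 fold change of -0.54 with an SE of 0.13 and an adjusted p = 0.0159). Kif15, a motor that works beside Eg5, had 336, 381 and 275 CPM in Tc0, 264, 223 and 231 CPM in Tc0 with CoA and 291, 321 and 292 CPM in Tc22. It too was lowest with CoA, without overlap (log2 fold change of -0.46 with an SE of 0.12 and an adjusted p = 0.0237). Kif18a, which damps chromosome movements at the spindle equator, had 137, 135 and 85.8 CPM in the Tc0 libraries, 92.7, 79.8 and 74.7 CPM with CoA and 98.1, 98.0 and 87.8 CPM in the Tc22 libraries. That of mouse 728 in Tc0 lay near the levels with CoA, so these groups overlapped, although the level was lower with CoA in 3 of 3 mice (log2 fold change of -0.51 with an SE of 0.12 and an adjusted p = 0.0169). Kif4, a chromosome-bound kinesin, had 181, 202 and 166 CPM in Tc0, 142, 130.0 and 130.3 CPM in Tc0 with CoA and 165, 189 and 178 CPM in Tc22. CoA was below both other groups, with a log2 fold change of -0.44 with an SE of 0.10 and an adjusted p = 0.0153 against Tc0 and a difference of 0.40 (SE 0.10, adjusted p = 0.0173) for Tc22 against CoA. Tpx2, which activates Aurora A and seeds spindle microtubules, had 372.0, 365.0 and 317.5 CPM in the Tc0 libraries, 318.4, 266.2 and 291.2 CPM with CoA and 322.0, 355.7 and 326.2 CPM in the Tc22 libraries. In Tc0, mouse 728 overlapped the values with CoA, and the CoA difference was -0.27 (SE 0.11, adjusted p = 0.107). Kif2c, which shortens microtubules at the centromere, had a CoA difference of -0.24 (SE 0.10, adjusted p = 0.0988).

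In the set of 7 genes of the central spindle and cytokinesis, all CoA differences were below 0 and 2 passed. Racgap1, a subunit of centralspindlin, had 183, 213 and 227 CPM in the Tc0 libraries, 160.4, 151 and 172 CPM with CoA and 198, 231 and 231 CPM in the Tc22 libraries. CoA lay below both other groups (log2 fold change of -0.36 with an SE of 0.10 and an adjusted p = 0.0297 against Tc0, and log2 fold change of 0.44 with an SE of 0.10 and an adjusted p = 0.00958 for Tc22 against CoA). Anln encodes anillin, a scaffold of the contractile ring, and had 112, 119 and 104 CPM in Tc0, 94.8, 78.9 and 83.3 CPM in Tc0 with CoA and 122, 117 and 122 CPM in Tc22. It too was lowest with CoA in every library (log2 fold change of -0.39 with an SE of 0.10 and an adjusted p = 0.023 against Tc0, and log2 fold change of 0.49 with an SE of 0.10 and an adjusted p = 0.00634 for Tc22 against CoA). Prc1, which bundles microtubules of the midzone, had 295, 284 and 230.5 CPM in the Tc0 libraries, 246, 209 and 226 CPM with CoA and 275, 271 and 255 CPM in the Tc22 libraries. CoA lay below Tc22 in all 3 libraries but overlapped Tc0 (log2 fold change of -0.24 with an SE of 0.11 and an adjusted p = 0.128). Kif20a, a kinesin of the midzone, varied little, with 178, 191 and 188 CPM in Tc0, 179.6, 179.8 and 181 CPM in Tc0 with CoA and 173, 193 and 185 CPM in Tc22 and a CoA difference of -0.04 (SE 0.09, adjusted p = 0.761). The kinesins Kif20b and Kif23 and the cytokinesis gene Ect2 had CoA differences of -0.29, -0.22 and -0.26, none past the threshold.

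Chromosome structure held 6 genes, of which 4 fell with CoA. Mki67 encodes Ki-67, the coat of mitotic chromosomes, and had 1905, 2167 and 1647 CPM in the Tc0 libraries, 1457, 1215 and 1164 CPM with CoA and 1576, 1877 and 1708 CPM in the Tc22 libraries. All values with CoA were below all others (log2 fold change of -0.57 with an SE of 0.13 and an adjusted p = 0.0125 against Tc0, and log2 fold change of 0.43 with an SE of 0.13 and an adjusted p = 0.0289 for Tc22 against CoA). Top2a (ENSMUSG00000020914, chr11:98992943-99024189) had 2652, 2924 and 2144 CPM in Tc0, 1957, 1725 and 1751 CPM in Tc0 with CoA and 2449.5, 2936 and 2736 CPM in Tc22. All its values with CoA also lay below all others, while Tc0 and Tc22 overlapped. The log2 fold change with CoA was -0.50 with an SE of 0.13 and an adjusted p = 0.0211 against Tc0. For Tc22 against CoA it was 0.58 with an SE of 0.13 and an adjusted p = 0.00856. Smc4 and Smc2 form the core of condensin. Smc4 had 1421, 1467 and 941 CPM in the Tc0 libraries, 1074, 877 and 866 CPM with CoA and 1044, 1022 and 949 CPM in the Tc22 libraries. The Tc0 libraries of mice 715 and 725 stood above all others, and the third Tc0 library overlapped the CoA values (log2 fold change of -0.43 with an SE of 0.13 and an adjusted p = 0.0427). Smc2 had 671, 724 and 462 CPM in Tc0, 575, 551 and 487 CPM in Tc0 with CoA and 532, 559 and 492 CPM in Tc22, with the Tc0 library of mouse 728 the lowest of the 9, and a CoA difference of -0.18 (SE 0.12, adjusted p = 0.292). Ncapg, a condensin subunit, fell close to the threshold (log2 fold change of -0.37 with an SE of 0.12 and an adjusted p = 0.0499). Ncapd2, another condensin subunit, had 261, 307 and 504 CPM in the Tc0 libraries, 254, 213 and 319.9 CPM with CoA and 346, 408 and 461 CPM in the Tc22 libraries. Its Tc0 values spanned nearly the whole range, and the CoA comparison with Tc0 did not pass (log2 fold change of -0.41 with an SE of 0.14 and an adjusted p = 0.0641), while Tc22 lay above CoA in all 3 libraries (log2 fold change of 0.64 with an SE of 0.14 and an adjusted p = 0.00934), the largest log2 fold change of a member in that comparison.

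The spread within the Tc0 group went along with base composition. Across the 45 members, the log2 level in the Tc0 library of mouse 728 minus the mean of those of mice 715 and 725 correlated with the GC content of the longest coding transcript with Pearson's r = 0.893 (a description across genes that share these libraries). In that library 28 members were lower and 17 higher than the mean of the other Tc0 libraries. Members rich in GC, such as Espl1 (difference 0.95), Ncapd2 (0.83) and Plk1 (0.65), were higher, and Spc25 (-0.81), Kif18a (-0.66) and Smc4 (-0.62) were lower. The trend was not confined to that library. Across the members, the log2 level minus the gene's mean over the 9 libraries was set against GC content library by library. The correlation was close to 0 in the Tc22 library of mouse 715 and weak in the CoA library of mouse 725. The r values were -0.845, -0.772 and 0.817 in Tc0, -0.553, -0.106 and 0.657 with CoA, and 0.017, 0.302 and 0.719 in Tc22. Mouse 728 had the highest r in each group. The log2 fold changes correlated with GC content across the members with r = 0.362 with CoA, 0.776 for Tc22 against Tc0 and 0.193 for Tc22 against CoA. As an alternative chosen after seeing the data, each library's GC trend over all genes was removed with the block for mouse kept. With CoA, 25 members then fell, among them all 15 named above, and 2 rose (Aurka and Ccnb1), beside 17% and 16.4% of all genes. In Tc22 against CoA 19 were then higher and 1 lower, beside 19% and 21.8%, and in Tc22 against Tc0 still none passed. What set the composition of these libraries was not tested.

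**Figure D4:**
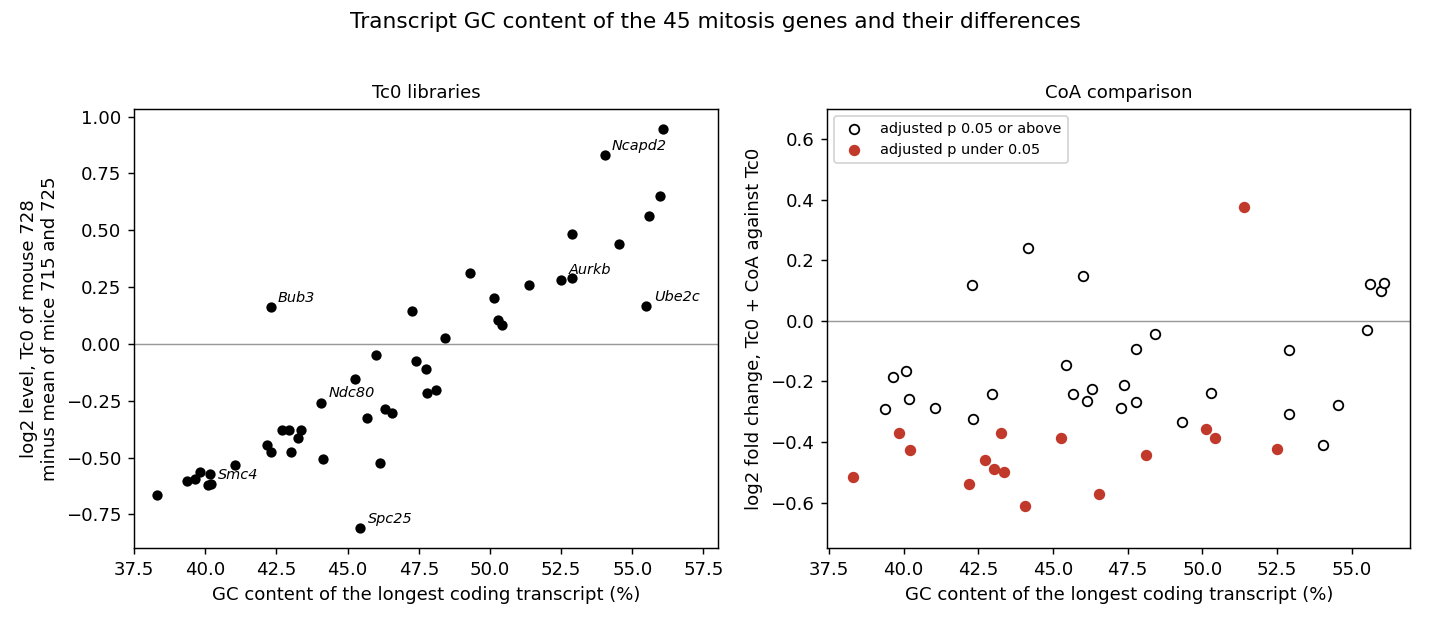
Each point is 1 of the 45 members, placed by the GC content of its longest coding transcript (%, x axis). On the left, the log2 level in the Tc0 library of mouse 728 minus the mean of the Tc0 libraries of mice 715 and 725 rises with GC content (r = 0.893); on the right, the log2 fold change with CoA (filled where the adjusted p is under 0.05) follows it less closely (r = 0.362).

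Further genes of mitosis also fell with CoA. Of a list of 110 other genes of mitotic regulators, kinetochore, spindle, cohesin, condensin and the anaphase promoting complex, 109 were measured. With CoA 24 of them fell and 1 rose, beside 12% and 12.5% of all genes, with a median log2 fold change of -0.18. The smallest p-values among the falls belonged to Oip5 (log2 fold change of -0.75 with an SE of 0.13 and an adjusted p = 0.00561) and Nusap1 (log2 fold change of -0.84 with an SE of 0.15 and an adjusted p = 0.00585). Oip5 helps to load Cenpa onto centromeres, as does Hjurp (log2 fold change of -0.69 with an SE of 0.14 and an adjusted p = 0.00923), and Nusap1 binds spindle microtubules, as does Ckap2l (log2 fold change of -0.53 with an SE of 0.11 and an adjusted p = 0.00887). Fbxo5, an inhibitor of the anaphase promoting complex, fell with a log2 fold change of -0.57 with an SE of 0.11 and an adjusted p = 0.00724. The condensin II subunit gene Ncapd3 fell with a log2 fold change of -0.48 with an SE of 0.10 and an adjusted p = 0.00881. Trip13, an ATPase that remodels Mad2, was the gene that rose (log2 fold change of 0.46 with an SE of 0.12 and an adjusted p = 0.0209).

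Set against CoA, Tc22 had 28 genes of this list higher and 2 lower, beside 16% and 16% of all genes, with a median log2 fold change of 0.13. Those lower were Trip13 (log2 fold change of -0.63 with an SE of 0.12 and an adjusted p = 0.00413) and Anapc10, a subunit of the anaphase promoting complex (log2 fold change of -0.40 with an SE of 0.14 and an adjusted p = 0.0469). Among the higher were Hjurp (log2 fold change of 0.82 with an SE of 0.14 and an adjusted p = 0.00302) and Nusap1 (log2 fold change of 0.84 with an SE of 0.15 and an adjusted p = 0.00352). The condensin II gene Ncaph2 was higher with a log2 fold change of 0.88 with an SE of 0.16 and an adjusted p = 0.00328. Cdc25b, a phosphatase that activates Cdk1, was higher with a log2 fold change of 1.0 with an SE of 0.19 and an adjusted p = 0.00429, and Anapc11, a catalytic subunit of the anaphase promoting complex, with a log2 fold change of 0.58 with an SE of 0.12 and an adjusted p = 0.0062. Tc22 against Tc0 gave none past edgeR's threshold and 0 by DESeq2. At an unadjusted p under 0.05 by edgeR there were 26 of the 109, beside 3248 of the 15348 genes tested, which is a similar share. Without the Tc0 library of mouse 728, 12 were higher and 26 lower (11% and 23.9%, beside 9.91% and 7.1% of all genes). The falls with CoA numbered 3 (2.75%, beside 3.17% of all genes) when the Tc0 library of mouse 725 was left out and 38 (34.9%, beside 11.9%) when that of mouse 728 was. Leaving out the CoA library of mouse 725 gave 4 (3.67%, beside 3.59%), that of mouse 728 gave 7 (6.42%, beside 4.22%), and a fit with no block for mouse gave 8 (7.34%, beside 4.31%). In Tc22 against CoA, 5 were higher (4.59%) without the CoA library of mouse 725, beside 7.85% of all genes, and 7 (6.42%) without that of mouse 728, beside 8.03%. Without the Tc22 library of mouse 715 there were 6 (5.5%, beside 10.5%), without that of mouse 725 there were 5 (4.59%, beside 7.32%), and with no block for mouse 5 (4.59%, beside 6.63%). In each of these 5 fits the share of the list was below that of all genes.

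Several genes of S phase rose with CoA. Of 27 genes of DNA replication and nucleotide supply, 7 rose and 1 fell, beside 12.5% and 12% of all genes, with a median log2 fold change of 0.21. Ccne1, the cyclin of the entry into S phase, had the smallest p (log2 fold change of 0.64 with an SE of 0.10 and an adjusted p = 0.00417). It was followed by the origin licensing factor Cdc6 (log2 fold change of 0.45 with an SE of 0.09 and an adjusted p = 0.0095) and the helicase subunit Mcm7 (log2 fold change of 0.42 with an SE of 0.11 and an adjusted p = 0.0215). Thymidylate synthase Tyms rose with a log2 fold change of 0.34 with an SE of 0.09 and an adjusted p = 0.0258, and the uracil glycosylase Ung with a log2 fold change of 0.50 with an SE of 0.14 and an adjusted p = 0.0277. The gene that fell was Slbp, which binds histone mRNA (log2 fold change of -0.44 with an SE of 0.12 and an adjusted p = 0.0271). In each of 4 fits only 1 gene (3.7%) rose, below the share of all genes: 4.13% when the Tc0 library of mouse 725 was left out, 4.77% and 5.13% when the CoA library of mouse 725 or of mouse 728 was, and 5.21% with no block for mouse. With the Tc22 libraries left out of the fit 2 rose (7.41%), which was also below the share of all genes (10.4%). Leaving out the Tc0 library of mouse 728 gave 8 (29.6%, beside 13.4%).

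In Tc22 against CoA, 9 S phase genes were lower and none higher, beside 16% of all genes in each direction. Ccne1 was lower by the widest margin (log2 fold change of -1.0 with an SE of 0.10 and an adjusted p = 0.00037), and Ccne2, its paralog, was lower too (log2 fold change of -0.64 with an SE of 0.13 and an adjusted p = 0.00496). Cdc6 (log2 fold change of -0.50 with an SE of 0.09 and an adjusted p = 0.00391) and Ung (log2 fold change of -0.60 with an SE of 0.14 and an adjusted p = 0.0101) were also lower. Of nucleotide supply, Tyms was lower (log2 fold change of -0.47 with an SE of 0.09 and an adjusted p = 0.00486), as was Rrm2, a subunit of ribonucleotide reductase (log2 fold change of -0.56 with an SE of 0.12 and an adjusted p = 0.00658). The count was 5 (18.5%) without the CoA library of mouse 725 or of mouse 728, beside 7.51% and 7.45% of all genes. It was 4 (14.8%) without the Tc22 library of mouse 725, beside 6.61%, 6 (22.2%) without that of mouse 715, beside 10%, and 4 with no block for mouse, beside 7.04%. Tc22 against Tc0 gave none past the threshold by edgeR or DESeq2. At an unadjusted p under 0.05 by edgeR there were 5 of the 27, beside 3248 of the 15348 genes tested, which is a similar share. Without the Tc0 library of mouse 728, 1 was higher and 6 lower (3.7% and 22.2%, beside 9.91% and 7.1% of all genes). Summed over the list, S phase levels were 6032 ± 224 CPM in Tc0, 6579 ± 349 CPM with CoA and 5781 ± 328 CPM in Tc22, beside 14577 ± 1657, 11394 ± 729 and 13602 ± 595 CPM for the 45 mitosis genes (SD, n = 3). The range of the S phase sum with CoA overlapped that of Tc0 and lay just above that of Tc22, and each mouse had its highest value with CoA.

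**Figure D5:**
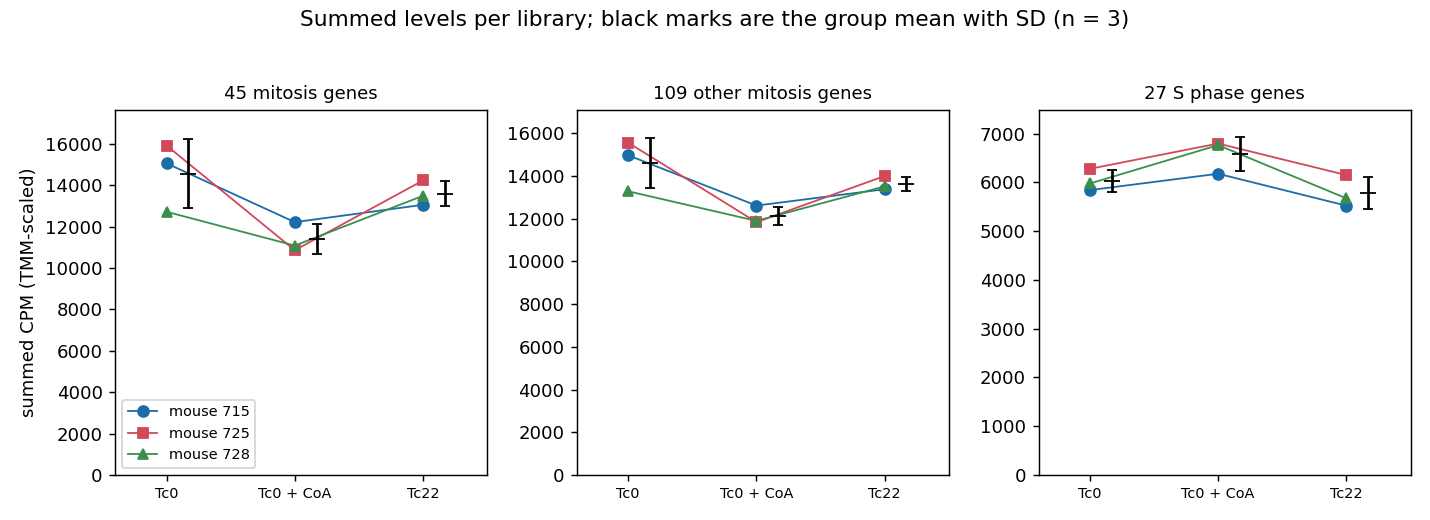
Summed levels in CPM (TMM-scaled, axes from 0) of the 45 mitosis genes, 109 other mitosis genes and 27 S phase genes in each library, with 1 line per mouse and black marks for the group mean with SD (n = 3). Both mitosis sums are lowest with CoA in each mouse, and the S phase sum is highest with CoA in each mouse.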

How the data were processed

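The authors deposited gene counts for 9 libraries of ribosome-depleted total RNA (TruSeq Stranded Total RNA, paired ends of 100 cycles, HiSeq 2000), per the labels' protocols; single files and the combined table were identical. STAR 2.5.2, RSEM 1.3.0, GRCm38 and mm10 are named without role, per the submitters' processing notes; of annotation, filters and strand setting the sources used here say nothing. The counts are whole, though RSEM estimates need not be, so they may have been rounded; overlapping, antisense or near-identical genes may share reads.

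The 45 members were matched by symbol; they, the lists, the roles and the motifs were chosen with earlier results of these data known. Counts were filtered with filterByExpr by group (15348 genes kept), scaled with TMM and tested in R 4.3.3 by the quasi-likelihood F test of edgeR 4.0.16 on group and mouse over all 9 libraries, with 4 residual degrees of freedom and Benjamini-Hochberg adjustment over all genes tested, at a threshold of 0.05. Each SE was taken as the size of the log2 fold change over the root of its F value. Mouse pairing comes from the design text; deviations of same-mouse libraries from their group means correlated with r from 0.0238 to 0.747 (mean 0.431, 9 pairs). Replicates differed beyond sampling noise (chi-square per degree of freedom at least 22.3). With the block, p-values rest on how differences varied over 3 animals, pooled over the 3 groups. Each gene's spread was also drawn toward a trend over all genes tested.

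Values in every library are given for 23 fixed members, for members past the threshold (up to 12 per comparison, by smallest p) and for those of largest and smallest log2 fold change; other lists give up to 6 genes per comparison, by smallest p, and any gene whose count is 5 or fewer. GC content and length come from the longest coding transcript in GENCODE M21. Alternatives were DESeq2 1.42.0, library size alone, RLE size factors, no low-count filter, no block, the compared groups alone, each library left out in turn, and GC offsets (a spline with 5 degrees of freedom per library, chosen after seeing the data). The fits were also run on simulated data, with planted log2 changes larger than that of any member and a smaller spread than in these libraries. That run does not bear on changes of the size given here.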

Additional observations from a re-analysis of the deposited data

How the results depend on the processing

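Library size alone, RLE size factors and DESeq2 kept the counts of members called within 1.5 times in all 3 comparisons, and so did the fit without a low-count filter. Without the block for mouse, members lower with CoA went from 15 to 3 and members higher from 1 to 0, members higher in Tc22 against CoA from 9 to 5 and lower from 1 to 0, and genes called in all from 3763 to 1462 with CoA, from 565 to 120 for Tc22 against Tc0 and from 4913 to 2097 for Tc22 against CoA. In the compared groups alone, 9 members were lower with CoA (20%, beside 9.73% of all genes) and 0 higher (beside 10.4%). GC offsets gave 25 lower (55.6%, beside 17% of all genes) and 2 higher (4.44%, beside 16.4%) with CoA. They gave 19 higher (42.2%, beside 19%) in Tc22 against CoA. For Tc22 against Tc0, DESeq2 called 953 genes and the fit without a low-count filter 1275. The cause of these shifts was not tested. Leaving out single libraries gave 1 to 26 members lower and 0 to 1 higher with CoA (1160 to 4356 genes in all), 0 to 11 lower and 0 to 1 higher for Tc22 against Tc0 (201 to 2669 genes), and 2 to 14 higher and 0 to 1 lower for Tc22 against CoA (2185 to 5913 genes). A comparison that lost a library had 2 in that group.

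Signs turned for log2 fold changes near 0, none of them past the threshold. Under GC offsets the values for Tc22 against Tc0 were -0.19 for Plk1, -0.067 for Aurkb, -0.15 for Ube2c, 0.041 for Cenpf, 0.023 for Ndc80 and 0.026 for Kif15, and for Tc22 against CoA they were -0.032 for Cdc20, -0.033 for Ube2c and 0.034 for Pttg1. Without the low-count filter Plk1 gave 0.0086 for Tc22 against CoA. Over the fits without 1 library, log2 fold changes ranged for CoA against Tc0 over Ube2c -0.0721 to 0.00958 and Cdc20 -0.00159 to 0.249, for Tc22 against Tc0 over Ndc80 -0.174 to 0.00932, Kif4 -0.0989 to 0.0264, Top2a -0.0328 to 0.192, Ccnb2 -0.000575 to 0.17 and Aurkb -0.017 to 0.123, and for Tc22 against CoA over Plk1 -0.0603 to 0.101, Smc4 -0.00146 to 0.172 and Pttg1 -0.0755 to 0.0336. All members stood at 19.0 CPM or above in every library, and each group held 3 mice.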

Other observations

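Pairs of related mitotic genes moved apart, and their ratios were computed after their values were seen, as a description with no test. The ratio of Aurka to Aurkb in CPM was 0.684 for mouse 715, 0.555 for mouse 725 and 0.607 for mouse 728 in Tc0, 0.964, 1.25 and 1.02 with CoA, and 0.791, 0.607 and 0.672 in Tc22. Each ratio with CoA lay above all the others. The ratio of Ccnb1 to Ccnb2 was 2.65, 2.34 and 1.41 in Tc0, 2.98, 4.14 and 2.39 with CoA and 2.02, 1.82 and 1.44 in Tc22. Here the groups of Tc0 and CoA overlapped, though the ratio was higher with CoA in each mouse, and all values with CoA exceeded those of Tc22.

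Among the 38 members with a promoter window, the CHR core TTTGAA stood in 12 of the 13 that fell with CoA and in 18 of the other 25. CCAAT stood in 9 of the 13 and in 19 of the 25. These counts are small and describe letters in the windows.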
